A study of Dunaliella tertiolecta UTEX 'LB 999' with 2 samples.

Results

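Described here are 7 transcripts of the early secretory route, by which proteins leave the endoplasmic reticulum for the Golgi and are returned from it. They are contigs, transcript sequences assembled from reads, taken from the deposited lists if named ERD2A, ERD2C, SEC22, GOS1 or CGL49, or if described as similar to B-cell receptor-associated 31 or as an ARF-GAP protein. The rule found 7 contigs among the 234 that the authors listed as differing between 8 h and 4 h, and no name matched more than 1 contig. Every listed contig had been chosen by the authors for a difference between these libraries, so the direction and size of each difference below are a description and no test was made.

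Cells of Dunaliella tertiolecta, a wall-less green flagellate of salt water, were the material (strain UTEX LB-999). The 8 h and 4 h samples came from chemostat growth at 25 °C with 0.5 M NaCl, in which the light was raised to 400 µmol photons m-2 s-1 from the 40 µmol of the steady state. Cells were taken 8 h and 4 h after that change, as 1 library each, so both had received the stronger light and neither was an unshifted control. The study looked for genes that change with growth under stronger light. Which deposited column belongs to which time point was read from the direction of the deposited ratio, since the column headings do not say. Calculated back from the deposited values, the library totals were 674129 reads at 8 h and 556037 at 4 h. Intervals given below are 95% exact intervals on reads and cover counting error only, since neither time point had a replicate. They do not allow for the choice of contigs by their difference, so an interval above 1, single or pooled, is no test.

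In eukaryotes, coated vesicles carry newly made proteins from the endoplasmic reticulum to the Golgi, and other vesicles bring escaped residents and machinery back. Small GTPases of the ARF family start the assembly of coats, ARF-GAP proteins switch them off, ERD2 receptors retrieve residents, and SNARE proteins fuse each vesicle with its target. In green algae this route supplies the cell surface and the membrane of the flagella. The names are those of the closest Chlamydomonas reinhardtii protein, so the roles given are known from that relative, from plants, yeast or animals, and not from Dunaliella.

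All 7 contigs were on the list of those higher at 8 h. The rule takes contigs from lists of this very contrast, and 57.3% of all listed contigs were on the higher side, so nothing is read from that count. Summed over the 7, the 8 h library held 96.2 reads, against 17.8 in the 4 h library. That is 142.8 CPM (reads per 1000000 library reads) at 8 h (interval 115 to 174) and 32.0 CPM at 4 h (19.2 to 51.2), a pooled ratio of 4.46 (2.64 to 7.74). In a whole culture, more cells that make these transcripts and more transcript per cell cannot be told apart. The 7 ratios had a median of 4.15 and ran from 3.09 to 8.25. On the log2 scale their median was 2.05, beside 1.46 over the 134 contigs of the higher list. It was 1.14 over all 234 listed contigs, which include the 100 of the lower list. The 7 also had fewer reads, with medians of 11 at 8 h and 2 at 4 h, against 16 and 5 over the higher list. FAP115 and CPLD12, also with 2 reads at 4 h, had log2 ratios of 2.72 and 2.04. On the higher list every contig with 2 reads or fewer at 4 h, whether of the 7 or not, had a log2 ratio of 2.04 or more. Whether the larger median goes with low depth was not tested. Ratios of at least 4 were found for 6 of the 7 contigs, again on the contrast that chose them. They were found for 25 of the 134 contigs of the higher list, which are 10.7% of all listed contigs.

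**Figure D1:**
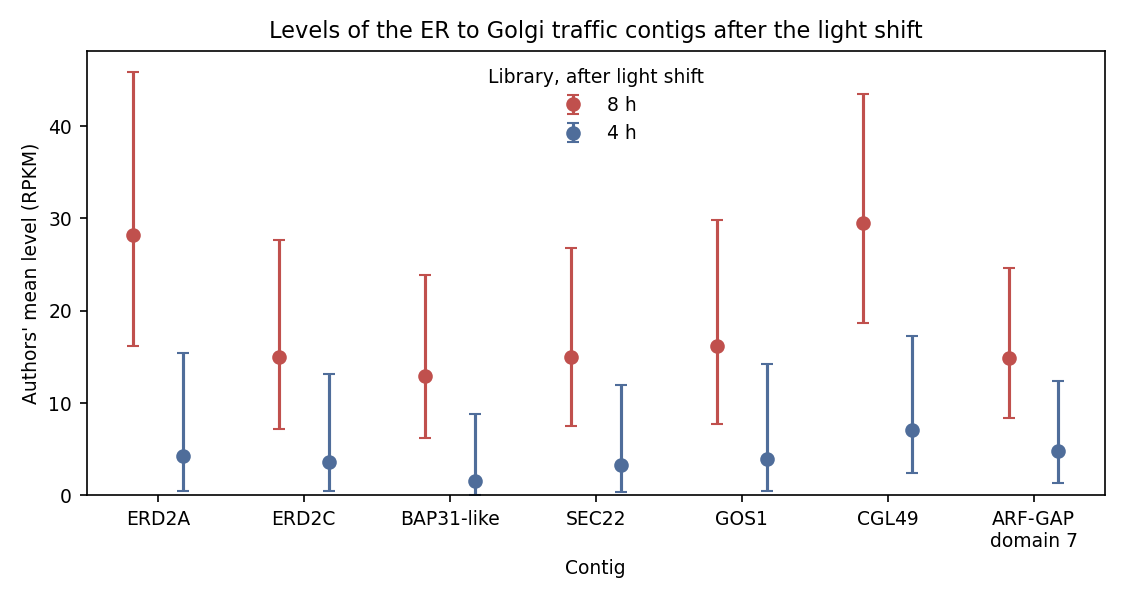
Level of each contig in RPKM, the authors' means, in the 8 h library (red) and the 4 h library (blue), with 95% exact Poisson intervals on the reads. Each red point lies at 12.98 RPKM or more and each blue point at 7.11 or less, while for SEC22, GOS1, ERD2C, ARF-GAP domain 7 and BAP31-like (the B-cell receptor-associated 31-like contig) the intervals overlap.

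The retrieval receptors were represented by 2 contigs. ERD2A, a receptor that captures escaped residents in the Golgi by a short signal at their C-terminus, is described in the files as endoplasmic reticulum retention defective 2B, and its contig of 840 bases is the shortest of the 7. Its level in RPKM, the reads for each kilobase of contig at equal library size, was 28.3 at 8 h, against 4.28 RPKM at 4 h. Those levels rest on 16 reads at 8 h and 2 at 4 h, and the ratio was 6.60 (1.55 to 59.2). ERD2A was the contig with the smallest p of the 7 in the authors' deposited table, at 0.000274 with a step-up FDR of 0.00474. With 1 library for each time point, the deposited p and FDR, here and below, cannot measure variation between cultures.

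ERD2C, described as another member of the receptor family for retained lumen proteins, had a level of 15.03 RPKM at 8 h and 3.64 RPKM at 4 h. Its contig of 987 bases held 10 reads at 8 h against 2 at 4 h, a ratio of 4.12 (0.879 to 38.7). The interval reaches below 1, so at this depth equal levels in the libraries lie within counting error. Taken as a pair, the receptors had 26 reads at 8 h and 4 at 4 h, and a ratio of 5.36 (1.86 to 21.1). The intervals of ERD2A and ERD2C overlap over nearly their whole length, and no difference between the receptors was detectable.

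The B-cell receptor-associated 31-like contig had the largest ratio of the 7. In mammals the protein of that name is a membrane protein of the endoplasmic reticulum that takes part in the export and quality control of other membrane proteins. The contig of 1143 bases stood at 12.98 RPKM at 8 h, against 1.57 RPKM at 4 h, the lowest level of the 7 contigs in either library. It had 10 reads at 8 h and 1 at 4 h, which gave a ratio of 8.25 (1.17 to 358). With 1 read in the denominator the upper end has little meaning, and with 1 read added in each library the ratio was 4.54. Its name is also the least secure, since its best hit had an E value of 8e-15, while the E values of the other 6 were 2e-33 or lower.

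Both SNAREs had ratios above 4 on few reads. SEC22, an R-SNARE of the synaptobrevin family that acts in transport between the endoplasmic reticulum and the Golgi in both directions, was at 14.97 RPKM at 8 h and 3.30 RPKM at 4 h. The contig has 1090 bases and held 11 reads at 8 h against 2 at 4 h, a ratio of 4.54 (0.99 to 42.1). GOS1, a Golgi Q-SNARE described in the files as golgi snare 12, was at 16.2 RPKM at 8 h and 3.93 RPKM at 4 h. Its 915 bases held 10 reads at 8 h and 2 at 4 h, as did ERD2C, and so the same ratio of 4.12 (0.879 to 38.7). Both intervals begin under 1. As a pair these SNAREs had 21 reads at 8 h and 4 at 4 h, for a ratio of 4.33 (1.46 to 17.4). Both were taken from the higher list, so the start of the pair's interval above 1 is no test. SYP1, the other listed SNARE, was on the lower list and is not part of the pair.

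The ARF switch was represented by a GTPase and by a regulator of such GTPases. CGL49, described as ADP-ribosylation factor B1B, had the highest level of the 7 contigs in both libraries, 29.5 RPKM at 8 h and 7.11 RPKM at 4 h. It also had the most reads, 24.2 at 8 h and 4.82 at 4 h on 1218 bases, and its ratio of 4.15 had the narrowest interval of the 7 on the log scale (1.48 to 13.3). These reads are not whole numbers, as happens where reads are shared between transcripts. ARF genes form a family of close relatives, so the reads of CGL49 may in part belong to a relative, and its value is uncertain to that extent. CGL49 and ERD2A were the 2 of the 7 with a step-up FDR under 0.05 in the authors' deposited table. The same held for 43 of the 134 contigs of the higher list, which are 18.4% of all listed contigs. CGL49 had a p of 0.000654 and an FDR of 0.00948 in the authors' deposited table.

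ARF-GAP domain 7, of the family that triggers hydrolysis of GTP on ARF proteins, had the smallest ratio. Its contig is the longest of the 7 at 1492 bases and stood at 14.9 RPKM at 8 h, against 4.82 RPKM at 4 h. The reads were 15 at 8 h and 4 at 4 h, a ratio of 3.09 (0.985 to 12.8). In the authors' deposited table this contig had the largest p of the 7, 0.0311, with an FDR of 0.188. The GTPase and the ARF-GAP contig together had 39.2 reads at 8 h and 8.82 at 4 h, a ratio of 3.67 (1.70 to 8.39).

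**Figure D2:**
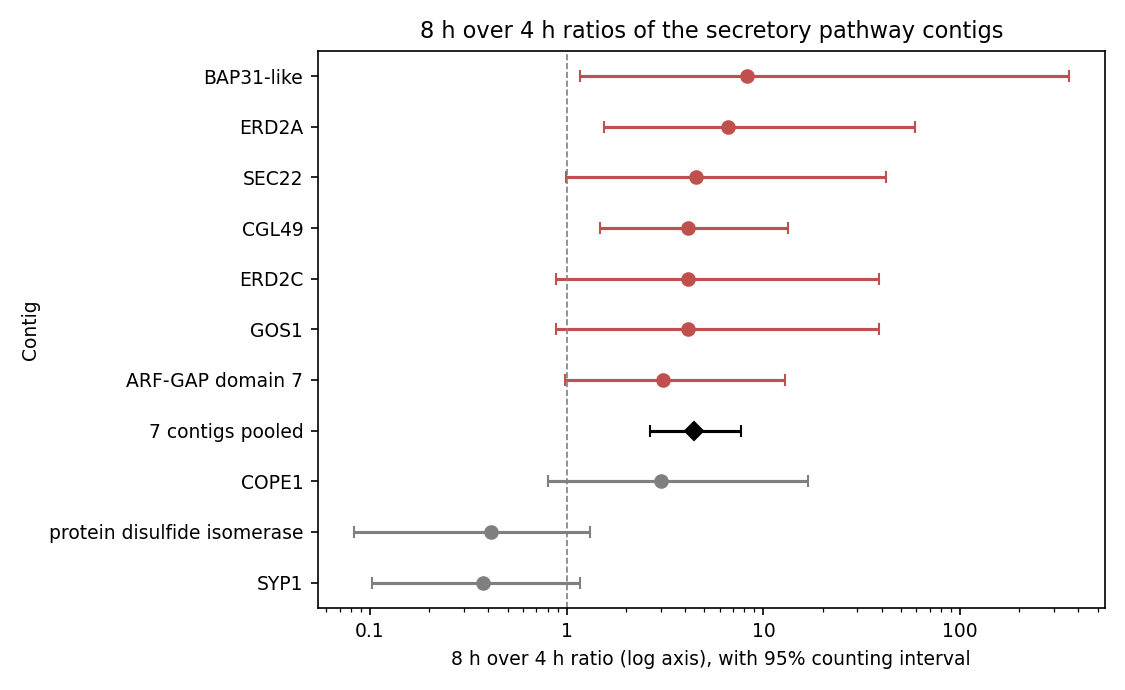
Ratio of the 8 h level to the 4 h level on a log axis, with 95% exact counting intervals, for the 7 contigs (red), their pooled reads (black diamond) and the other 3 listed contigs of the secretory pathway (grey). The interval starts above 1 for BAP31-like, ERD2A and CGL49 and for the pooled reads, and all 7 intervals overlap one another.

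The order of the ratios within the 7 cannot be settled by these reads. Each interval contains the pooled ratio of 4.46, and the 4 h counts of 1, 2, 2, 2, 2, 4 and 4.82 reads leave every ratio wide. Leaving out each contig in turn moved the pooled ratio between 4.18, without ERD2A, and 4.85, without ARF-GAP domain 7. Every single ratio was 3.09 or more, so this could not change the direction of the pooled ratio. The counting interval started above 1 for 3 contigs, ERD2A, the B-cell receptor-associated 31-like contig and CGL49. That was also so for 67 of the 134 contigs of the higher list, which are 28.6% of all listed contigs.

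In level, the order at 8 h was CGL49, ERD2A, GOS1, ERD2C, SEC22, ARF-GAP domain 7 and the B-cell receptor-associated 31-like contig. The last 5 lay between 12.98 and 16.2 RPKM, with intervals that overlap almost fully, so their order is not resolved. At 4 h all 7 lay between 1.57 and 7.11 RPKM. The median level of the 7 was 15.03 RPKM at 8 h and 3.93 RPKM at 4 h, beside 23.2 RPKM at 8 h and 8.53 RPKM at 4 h over the higher list. These are transcripts of modest level even within the list, whose 8 h reads had a median of 11 and whose 4 h reads had one of 2, while over the higher list the medians were 16 reads at 8 h and 5 at 4 h.

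Several features of the 7 contigs were not used by the rule, and only some of them held for all 7. By its contig name each was the only transcript assembled at its locus, which held for 56.8% of all listed contigs. The raw totals of 6 were whole numbers, beside 68.8% of all listed contigs, with CGL49 the exception. Their lengths, from 840 to 1492 bases, had a median of 1090, close to the median of 1094.5 over all listed contigs. No best hit and no locus was shared with another listed contig. The best hits lie on 5 chromosomes of the Chlamydomonas genome by their locus names, with SEC22 and CGL49 both on chromosome 12, and GOS1 and ERD2C both on chromosome 6. No place in a Dunaliella genome is given in the files.

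Other genes of the secretory pathway were sought in the lists by name, in 6 groups that run from entry into the endoplasmic reticulum to traffic beyond the Golgi. The search matched 10 contigs, the 7 above and another 3, and of the 10 the authors listed 8 as higher and 2 as lower at 8 h. Among the 3 that were not chosen for this account, 1 was higher and 2 were lower. Pooled over the 10, the ratio was 2.36 (1.64 to 3.45), against 4.46 for the 7. The names of the 7 had been chosen with their direction known, so no more is read from the distance between these ratios.

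COPE1, the epsilon subunit of coatomer, the COPI coat that ARF proteins recruit for return traffic from the Golgi, was the higher one. It stood at 17.6 RPKM at 8 h and 5.81 RPKM at 4 h, on 11 reads at 8 h and 3 at 4 h. Its ratio of 3.02 (0.799 to 16.9) was close to that of ARF-GAP domain 7, with an interval that also reached below 1. The group of coats and their GTPases held COPE1, CGL49 and ARF-GAP domain 7, so COPE1 was its only contig outside the 7, and the group of retrieval and cargo receptors held none outside them.

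SYP1, described as a syntaxin of plants, was the only contig of the SNARE group on the lower list. In plants the SYP1 group of syntaxins acts at the plasma membrane, at the far end of the secretory route. Its level was 5.996 RPKM at 8 h, against 15.99 RPKM at 4 h, on 5 reads at 8 h and 11 at 4 h, which gave a ratio of 0.375 (0.102 to 1.17). SEC22 and GOS1 had 21 reads together at 8 h and 4 at 4 h, so the 3 SNAREs did not share a direction. The intervals of SEC22 and SYP1 overlap, from 0.99 to 1.17, and the difference between SNAREs was not tested.

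A contig named for protein disulfide isomerases, enzymes that form disulfide bonds in proteins folding within the endoplasmic reticulum, was the other lower one. It had 8.88 RPKM at 8 h and 21.6 RPKM at 4 h, on 4.46 reads at 8 h and 8.94 at 4 h, and a ratio of 0.411 (0.0825 to 1.31). The name patterns for traffic beyond the Golgi matched no listed contig, though SYP1, counted with the SNAREs, is of a group that acts there in plants. No contig outside the lists was analysed here, so these counts say nothing of how many genes of the route were measured.

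**Figure D3:**
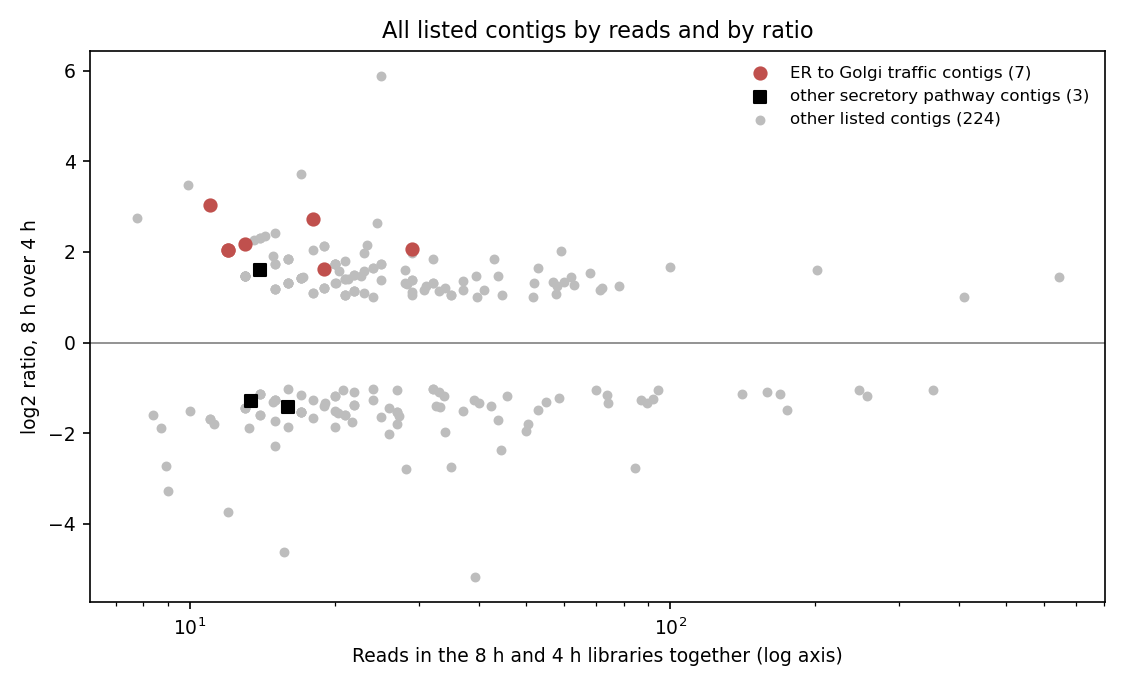
Log2 ratio of 8 h over 4 h against the reads of both libraries together (log axis) for the 234 listed contigs, with the 7 contigs in red and the other 3 of the secretory pathway as black squares. The 7 lie at log2 ratios of 1.63 to 3.04 and, apart from CGL49, at under 20 reads; ERD2C and GOS1 share a point, and no contig lies near 0 because the authors listed none below a 2-fold difference.

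Listed contigs from nearby steps were picked out by reading the names after their values were seen. DAD1, a subunit of the enzyme that attaches sugar chains to proteins in the endoplasmic reticulum, was at 20.4 RPKM at 8 h and 8.85 RPKM at 4 h, a ratio of 2.31 (0.786 to 8.19). CGL51, of a family of nucleotide and sugar transporters with members in the Golgi, was at 24.2 RPKM at 8 h and 9.43 RPKM at 4 h, a ratio of 2.57 (1.18 to 6.18). A SEC14-like 3 contig, of a family of lipid transfer proteins that in yeast act at the Golgi, had 24.9 RPKM at 8 h against 8.37 RPKM at 4 h, a ratio of 2.97 (1.06 to 10.2). A contig named for subunit E of the ATPase V0 complex had 31.6 RPKM at 8 h against 12.8 RPKM at 4 h, a ratio of 2.47 (0.750 to 10.5). An ENTH/ANTH/VHS contig, of a superfamily of adaptors in clathrin traffic, went the other way, with 9.32 RPKM at 8 h, 32.3 RPKM at 4 h and a ratio of 0.289 (0.103 to 0.711).

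Among the other 108 listed contigs that had an annotated function and at least 20 reads, the 3 with a log2 ratio nearest to the pooled 2.16 of the 7 were RBM8A, FAP189 and FAP90. RBM8A, an RNA-binding protein of the exon junction complex in animals, was at 38.3 RPKM at 8 h and 8.55 RPKM at 4 h, a ratio of 4.48. FAP189 and FAP90, flagellar associated proteins, had ratios of 4.07 and 3.96. Likeness here is the distance between log2 ratios over 2 libraries, and says no more than that. Apart from CGL49, the 7 themselves had under 20 reads, and other contigs of that depth were left out. Among those, FAP264 and IFT80, both at a log2 ratio of 2.14, lay nearer to 2.16 than FAP189 and FAP90.

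The smallest ratio of the 7, that of ARF-GAP domain 7, lay above the 2-fold limit of the lists, where the smallest ratio on the higher list was 2.002. The authors' p for the 7 ran up to 0.0311, while the p of all listed contigs ran up to 0.04995.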

How the data were processed

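Total RNA was made into stranded mRNA libraries, per the labels. Partek is named, without a version, in the submitters' processing notes, while aligner, assembler and reference are not given in the sources. The deposited means are in RPKM. Their headings name neither sample, so the numerator of the deposited ratio was taken as 8 h, from the contrast cell 8 vs 4. Also deposited are that ratio's natural log, its p-value and step-up FDR, its fold (a negative score for lower contigs), the E value of the best hit (a score), estimated counts summed over all modelled libraries, and a signal, their normalized total.

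Reads were recovered as RPKM times contig length times library total, taken from the raw maxima. In the 161 contigs with whole raw totals these came out whole in both libraries (tolerance 0.001 reads). Rounded reads gave Clopper-Pearson intervals of the 8 h share, scaled to ratios. Their coverage was tried on simulated Poisson reads only, without choice of contigs, shared reads or variation between cultures. That trial therefore speaks for counting error alone. Ratios are 8 h over 4 h RPKM, with no pseudocount and no filter. Members, pathway patterns and alternatives were chosen with earlier results of these data known. Named were all members, other contigs matching the patterns, and the 3 nearest in ratio with at least 20 reads. Software was Python 3.11.15 with scipy 1.17.1, pandas 2.3.3, numpy 2.4.6 and matplotlib 3.10.9.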

Additional observations from a re-analysis of the deposited data

Results flagged for a closer look

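The raw totals of 3 contigs hold more than 3 reads outside the 8 h and 4 h libraries, the limit set for this flag. That limit only selects contigs and does not mean that smaller excesses are 0. CGL49 had 7 such reads of 36.1 in its raw total, the B-cell receptor-associated 31-like contig 6 of 17, and ERD2C 4 of 16. Over the 7 contigs the excess was 24 of 138.1 raw reads, or 17.4%, beside 15.2% over all 234 listed contigs, 9.51% over the other contigs of the higher list and 20.7% over the lower list. SEC22 and ERD2A had 2 such reads each and GOS1 had 3, while ARF-GAP domain 7 had none. The labels used here describe no further library.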

How the results depend on the processing

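Under a ratio of summed RPKM, a geometric mean, raw reads without scaling, and the removal of CGL49, of the contig with a weak hit or, as an alternative added after the data were seen, of the 3 contigs with over 3 reads of other libraries, the pooled ratio stayed within its counting interval, between 4.23 and 5.40. Since all 7 contigs were listed as higher at 8 h, none of these settings could change the direction of the pooled ratio. Taking all 10 contigs of the pathway, also added later, the pooled ratio was 2.36. All 7 contigs were on the higher list, 6 at a fold limit of 4, and 2 with a deposited FDR under 0.05. In 3 the counting interval started above 1, a count added later. Without the 7, the pathway list held 1 higher contig of 3, against 8 of 10. The 7 single ratios, for which these settings cannot change the direction, lay between 2.73 and 5.54 with a pseudocount of 1 RPKM and, in a setting added later, between 2.64 and 4.67 with 1 read added in each library. Depth limits every single value, and the 4 h counts of 1 to 4.82 reads most of all. No paired analysis was possible because each time point had 1 library.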

Other observations

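The reads outside the labelled libraries were divided further, a step chosen after the data were seen. The deposited totals of raw and of normalized reads, less the 8 h and 4 h values, give the number of library reads behind each excess read. In the 21 contigs with whole raw totals and exactly 1 excess read, that number took 2 values, between 178814 and 178825 in 15 contigs and between 241478 and 241501 in 6. With libraries of 178820 and 241497 reads, the excess of all 144 contigs with whole raw totals and at least 1 excess read divided into whole reads, within 0.05 reads. The totals are thus matched by 2 further libraries, both smaller than those at 8 h and 4 h, and the labels used here give neither a time nor a treatment for them.

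In the library of 178820 reads, the 7 secretory contigs held 17 reads, or 95.1 CPM (exact Poisson interval 55.4 to 152). In the library of 241497 reads they held 7 reads, or 29.0 CPM (11.7 to 59.7). CGL49 had 5 reads in the smaller library and 2 in the larger, and the B-cell receptor-associated 31-like contig had 4 and 2. ERD2C had 3 reads and 1, GOS1 2 and 1, and SEC22 1 in each. ERD2A had 2 reads in the smaller library and 0 in the larger, where 3 reads would be 14.8 RPKM. ARF-GAP domain 7 had 0 reads in both, where 3 reads would be 11.2 RPKM in the smaller and 8.33 RPKM in the larger library. The other contigs of the higher list had 1905 CPM in the smaller library and 588 in the larger. Those of the lower list had 4559 CPM in the smaller library and 1114 in the larger, so both lists were higher in the smaller one. Since neither library has a label, these values enter no comparison.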
